A study of Mus musculus with 7 samples.

Results

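Fibrillar collagen is made by a chain of dedicated enzymes and helpers, and the 33 genes described here encode them: the hydroxylases, chaperones, export proteins, propeptide proteases and cross-linking oxidases that act on collagen itself. They were taken by gene symbol from the table of 49568 symbols, all 33 were found, and 32 had enough counts to be tested among 14976 genes. The RNA came from gastrocnemius, the large calf muscle, of male mice of the C57BL/6J strain. Of the 7 mice, 2 were 4 weeks old, 2 were 6 weeks old and 3 were 8 weeks old, with a stranded, rRNA-depleted library from each. No genotype is labelled at 4 and 6 weeks, and the titles of the 8-week libraries call those mice controls (Ctl). In the study's methods Ctl stands for littermates without CreER in a tamoxifen experiment. Whether the 8-week mice were bred or injected in that way is not given in the sources used here, so age and such a difference at 8 weeks cannot be told apart. The study asked how gene expression in muscle changes between the juvenile stage and early adolescence.

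Newly made collagen chains are hydroxylated on proline and lysine in the endoplasmic reticulum, where 4-hydroxyproline stabilizes the triple helix and hydroxylysine later serves in cross-links. Folded procollagen leaves in enlarged COPII carriers, loses its propeptides outside the cell and assembles into fibrils, which copper-dependent lysyl oxidases then cross-link. In muscle most of this work is done by interstitial fibroblasts and tendon cells, although several of the enzymes are also present in other secreting cells. In whole muscle, fewer cells of a type and less RNA per cell cannot be told apart.

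A library held 30836057 to 41784144 counts, and 25.1% to 37.4% of these fell on mt-Rnr2, a ribosomal RNA of mitochondria. Levels are given in CPM, the count scaled to the size of its library after TMM normalization. The 7 markers of skeletal muscle fibers summed to 60120 and 66370 CPM at 4 weeks and 70660 and 68880 CPM at 6 weeks. At 8 weeks their sums were 76290, 86340 and 77740 CPM, so the ages did not overlap. Libraries of the same age were not all alike. At 8 weeks 11 immediate early genes, which respond to handling or activity, summed to 138, 119 and 308 CPM in replicates 1, 3 and 2. The 9 slow fiber genes summed to 305, 302 and 501 CPM in these. The immediate early sums were 207 and 377 CPM at 4 weeks and 415 and 340 CPM at 6 weeks. Those of slow fiber genes were 478 and 603 CPM at 4 weeks and 557 and 554 CPM at 6 weeks. In both sums 8 weeks replicates 1 and 3 thus lay below all other libraries. Each pair of ages was tested with edgeR (quasi-likelihood) on a model that held the 7 libraries together. A gene counted as called where its p, adjusted over all genes tested by the method of Benjamini and Hochberg, was under 0.05.

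Of the collagen processing genes, 13 were called lower than at 4 weeks in 6-week muscle and 19 in 8-week muscle. At 6 against 4 weeks, this was 13 of the 32 genes tested, and none was higher. Of all genes tested, 6.9% were called in this comparison, 3.76% as lower and 3.15% as higher. The members had a median log2 fold change of −0.547, against −0.009 over all genes. At 8 against 4 weeks, 19 members were lower and 1, Mia3, was higher, while 18.5% of all genes were called, 8.95% as lower and 9.53% as higher. The median log2 fold change was then −0.669, against −0.00758 over all genes. At 8 against 6 weeks none of the 32 passed by edgeR or by the DESeq2 Wald test, although edgeR without the low-count filter called Loxl1 (adjusted p = 0.0421) and Adamts14 (0.0453) lower. In the filtered test 12 of the 32 had an unadjusted p under 0.05, against 12.2% of all genes. In that comparison 0.187% of all genes were called, 0.154% as lower and 0.0334% as higher. Libraries of 4 and 6 weeks did not overlap in 28 of the 32 members and in 58.3% of all genes (29.8% with 6 weeks lower). Each of these ages has only 2 libraries, so a lack of overlap says little on its own. Those of 4 and 8 weeks did not overlap in 27 members and in 49.1% of all genes. The comparisons of 6 and of 8 weeks share the 4-week libraries.

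**Figure D1:**
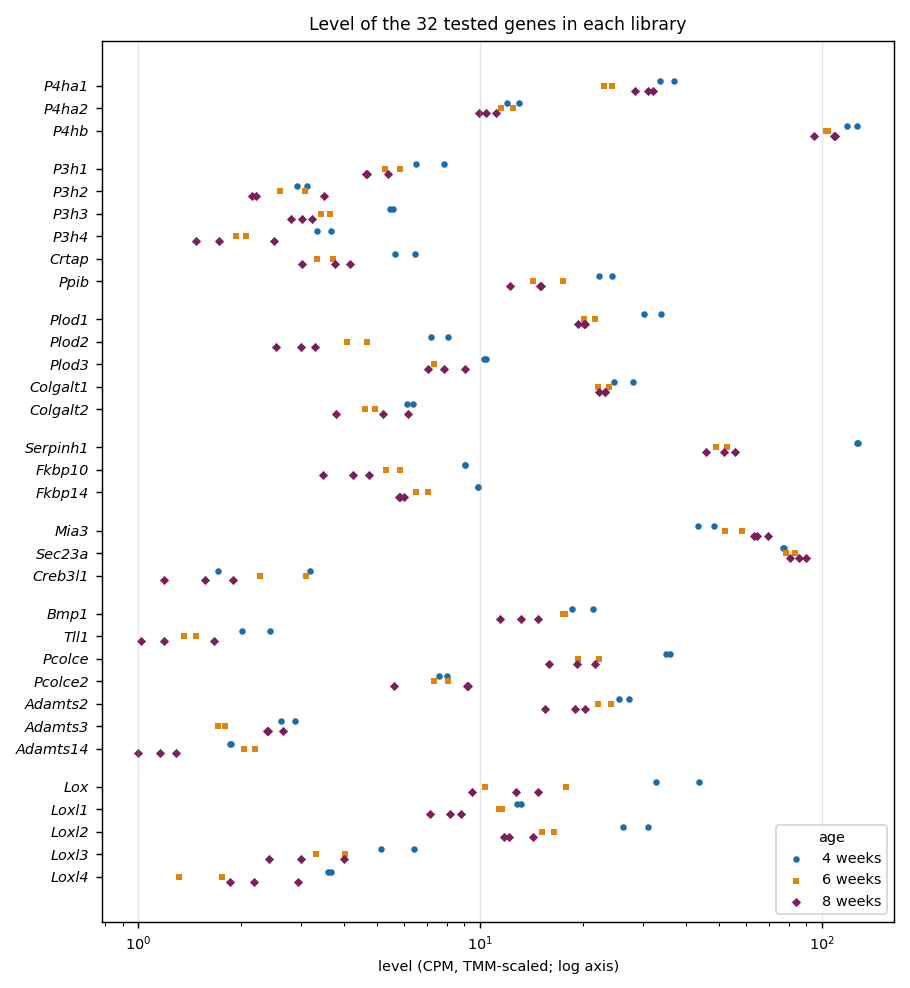
Level of each tested gene (CPM, log axis) in the 7 libraries, grouped by the step of collagen maturation, with circles for 4 weeks, squares for 6 weeks and diamonds for 8 weeks. Serpinh1 lay at 127 and 128 CPM at 4 weeks and at 45.7 to 55.9 CPM in all older libraries, while the Mia3 points moved to the right with age.

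Examples of the calls are Serpinh1, lower at both later ages, P4ha1, called lower at 6 weeks and not at 8 weeks, and Mia3, the member that rose. The DNA around their transcription starts is printed for that reason. RefSeq windows in GRCm38.p6, from 250 bases before to 50 bases after the start and in the direction of the gene, were matched for 22 of the 33 genes (25 windows). Capitals mark motif matches on either strand. The motifs are the TATA box (spelled TATAAA), the CCAAT box (spelled CCAAT) and the GC box bound by Sp1 and related factors (spelled GGGCGG). The last is a form of the core of hypoxia response elements (spelled ACGTG). Other forms of that core were not searched.
Serpinh1, chr7:99353190-99353489, minus strand: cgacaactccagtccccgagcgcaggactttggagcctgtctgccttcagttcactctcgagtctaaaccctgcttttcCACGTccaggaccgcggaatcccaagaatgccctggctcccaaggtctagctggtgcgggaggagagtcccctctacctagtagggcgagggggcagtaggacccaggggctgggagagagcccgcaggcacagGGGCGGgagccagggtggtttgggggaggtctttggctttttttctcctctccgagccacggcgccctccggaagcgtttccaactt
P4ha1, chr10:59323046-59323345, plus strand: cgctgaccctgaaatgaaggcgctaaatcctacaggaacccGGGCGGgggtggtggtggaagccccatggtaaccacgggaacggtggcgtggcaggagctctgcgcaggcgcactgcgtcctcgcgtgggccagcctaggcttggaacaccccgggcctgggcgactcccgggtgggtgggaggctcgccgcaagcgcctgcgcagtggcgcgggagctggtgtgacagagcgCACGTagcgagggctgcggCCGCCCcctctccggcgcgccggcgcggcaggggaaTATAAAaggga
Mia3, chr1:183369516-183369815, minus strand: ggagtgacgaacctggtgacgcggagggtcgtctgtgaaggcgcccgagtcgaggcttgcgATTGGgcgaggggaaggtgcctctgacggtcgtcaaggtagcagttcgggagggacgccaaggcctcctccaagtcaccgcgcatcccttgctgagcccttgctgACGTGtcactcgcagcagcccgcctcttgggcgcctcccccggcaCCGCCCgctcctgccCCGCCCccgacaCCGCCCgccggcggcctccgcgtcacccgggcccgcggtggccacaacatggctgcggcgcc
The GC box was found in the windows of 18 of the 22 genes and in 35.7% of 32851 windows of all genes. The ACGTG form of the hypoxia core was found in those of 11 of the 22 genes, against 19.6% of all windows. It lay 171 to 167 bases before the start of Serpinh1, 16 to 12 before that of P4ha1 and 84 to 80 before that of Mia3. The CCAAT box was in windows of 7 of the 22 genes and in 37.4% of all windows, and the TATAAA spelling in those of 3 genes and in 13.6%. That of P4ha1 lay after the start, at bases 40 to 45. Those of Crtap and Plod1 lay 136 to 131 and 232 to 227 bases before it, the latter on the opposite strand. The GC content of the member windows ranged from 46.3% to 77.3%, with a median of 63.7% against 52.7% over all windows, and 22 of the 25 lay above the latter. A GC-rich motif is met more often in GC-rich sequence. All 3 printed windows hold a GC box and the ACGTG form of the hypoxia core.

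The collagen prolyl 4-hydroxylase is built from a catalytic alpha subunit and protein disulfide isomerase, the product of P4hb. Of its 3 genes tested, 1 was called at 6 weeks and none at 8 weeks. P4ha1, the main catalytic subunit, was at 33.55 and 36.9 CPM at 4 weeks, 24.3 and 23.0 CPM at 6 weeks and 31.0, 32.1 and 28.4 CPM at 8 weeks. The 6-week libraries thus lay below all others, and the 8-week libraries below both 4-week ones. P4ha1 fell at 6 weeks (log2 fold change −0.58, standard error 0.111, adjusted p = 0.0158), while at 8 against 4 weeks its log2 fold change was −0.21 with a 95% interval from −0.43 to 0.01 (adjusted p = 0.174). The call at 6 weeks was lost when 4 weeks replicate 1 or 2 was left out (adjusted p = 0.0517 and 0.141), or 6 weeks replicate 1 or 2 (0.125 and 0.0951). It was also lost with scaling to library totals (adjusted p = 0.0693). For P4ha1 the log2 fold change at 8 against 6 weeks was 0.37 and was not called. A difference between its early and late change was not shown either (−0.94, not called). P4ha2, a second catalytic subunit, was at 9.95 to 12.96 CPM throughout and P4hb at 95.1 to 127 CPM, and neither passed at any age. For P4hb the log2 fold change was −0.24 at 6 weeks (interval −0.482 to −0.00395) and −0.23 at 8 weeks (interval −0.45 to −0.016). P4ha3 had 0 to 10 counts per library and was not tested. Per kb of exon, which allows genes to be set side by side, P4ha1 stood at 8.56 ± 0.574 CPM per kb at 4 weeks, P4ha2 at 1.998 ± 0.112 and P4ha3 at 0.0595 ± 0.0362 (SD, n = 2).

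The prolyl 3-hydroxylase complex of P3h1, Crtap and the cyclophilin Ppib modifies single prolines of the collagen chains, and its loss causes brittle bone disease in humans. Crtap was at 5.65 and 6.46 CPM at 4 weeks, 3.34 and 3.73 CPM at 6 weeks and 3.78, 4.16 and 3.02 CPM at 8 weeks. All 5 older libraries were below the 4-week ones, a log2 fold change of −0.77 at 6 weeks (adjusted p = 0.0264) and −0.73 at 8 weeks (adjusted p = 0.00962). Ppib fell from 23.3 ± 1.42 (SD, n = 2) to 15.9 ± 2.23 CPM (SD, n = 2) at 6 weeks and 14.1 ± 1.64 CPM (SD, n = 3) at 8 weeks, with log2 fold changes of −0.55 (adjusted p = 0.0365) and −0.73 (adjusted p = 0.00305). P3h1, the enzyme of the complex, had a log2 fold change of −0.37 at 6 weeks (adjusted p = 0.170) and fell at 8 weeks (−0.55, adjusted p = 0.0197). P3h3 and P3h4, which in the mouse act together with lysyl hydroxylase 1, had a similar course. P3h3 fell from 5.50 ± 0.0754 to 3.54 ± 0.156 CPM (SD, n = 2 each) at 6 weeks (−0.63, adjusted p = 0.0301) and was at 2.79 to 3.23 CPM at 8 weeks (−0.86, adjusted p = 0.00197). P3h4 had a larger but less certain difference at 6 weeks (−0.81, standard error 0.237, adjusted p = 0.0654) and fell at 8 weeks (−0.88, adjusted p = 0.0167). P3h2, a related enzyme known for basement membrane collagen, lay between 2.15 and 3.51 CPM with overlap between all ages and did not pass. Without single libraries of 4 or 6 weeks the adjusted p at 6 weeks was 0.0748 to 0.203 for Crtap, 0.0651 to 0.306 for Ppib and 0.129 to 0.191 for P3h3. At 8 weeks the call was lost without 4 weeks replicate 2 for Crtap (adjusted p = 0.108), without 4 weeks replicate 2 or 8 weeks replicate 1 for P3h1 (0.197 and 0.0528), and without 4 weeks replicate 1 or 2 for P3h4 (0.0649 and 0.125). Ppib and P3h3 kept theirs without any 1 library.

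Lysyl hydroxylases prepare lysine for cross-links and sugars, and the one with the largest change was Plod2, which acts on the telopeptides that form the cross-links. Plod2 was at 7.17 and 8.05 CPM at 4 weeks, 4.09 and 4.67 CPM at 6 weeks and 3.29, 2.53 and 2.99 CPM at 8 weeks. The 3 ages did not overlap, in falling order. Its log2 fold change was −0.80 at 6 weeks (standard error 0.160, adjusted p = 0.0179) and −1.37 at 8 weeks (standard error 0.148, adjusted p = 0.000314), with −0.58 at 8 against 6 weeks (adjusted p = 0.184). Plod1, which acts on helical lysines, fell from 32.05 ± 2.61 to 20.9 ± 1.07 CPM (SD, n = 2 each) at 6 weeks (−0.62, adjusted p = 0.0114) and was at 19.9 ± 0.478 CPM (SD, n = 3) at 8 weeks (−0.69, adjusted p = 0.00110). Plod3, which also adds glucose, was at 10.38 and 10.2 CPM at 4 weeks, at 7.34 and 7.35 CPM at 6 weeks and at 7.03 to 9.02 CPM at 8 weeks. Its libraries did not overlap between 4 weeks and either later age, yet it did not pass (−0.49, adjusted p = 0.0582 and −0.37, adjusted p = 0.0614). The galactosyltransferases Colgalt1 and Colgalt2 did not pass either, and for Colgalt1, at 22.1 to 28.03 CPM in all libraries, the interval of the log2 fold change was −0.44 to 0.04 at 6 weeks and −0.42 to 0.02 at 8 weeks. Per kb of exon the order at 8 weeks was Plod1 (2.94 ± 0.0712), Plod3 (1.76 ± 0.222) and Plod2 (0.544 ± 0.0713 CPM per kb; SD, n = 3). At 6 weeks the call on Plod2 was lost without any 1 of the 4-week or 6-week libraries (adjusted p = 0.0556 to 0.169) and that on Plod1 without 4 weeks replicate 2 or 6 weeks replicate 1 (0.123 and 0.134), while both kept theirs at 8 weeks without any 1 library.

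All 3 collagen chaperones fell at both later ages, with median log2 fold changes of −0.696 and −1.12. Serpinh1 (chromosome 7 of GRCm38, 99345376 to 99353239), known as Hsp47, binds the triple helix in the endoplasmic reticulum and is specific for collagen. It was at 127 and 128 CPM at 4 weeks, 48.9 and 52.6 CPM at 6 weeks and 55.9, 51.9 and 45.7 CPM at 8 weeks. The 6-week values lay within the range of the 8-week values, far below both of 4 weeks. Its log2 fold change was −1.33 at 6 weeks (standard error 0.118, adjusted p = 0.000512), which left 39.9% of the 4-week level, −1.32 at 8 weeks (standard error 0.104, adjusted p = 6.02e-05) and 0.01 at 8 against 6 weeks (interval −0.22 to 0.24). Serpinh1 was the only member whose change from 4 to 6 weeks differed by test from its change from 6 to 8 weeks (−1.34, standard error 0.202, adjusted p = 0.0385), a test in which 0.0935% of all genes were called, 0.0267% in that direction and 0.0668% in the other. That call was lost without any 1 library of 4 or 6 weeks or without 8 weeks replicate 1 (adjusted p = 0.083 to 0.356) and with library totals (0.146). Fkbp10, a prolyl isomerase that binds collagen and whose loss causes brittle bones in humans, was at 9.05 and 9.02 CPM at 4 weeks, 5.32 and 5.82 CPM at 6 weeks and 4.75, 4.25 and 3.47 CPM at 8 weeks. It fell by 0.70 on the log2 scale at 6 weeks (adjusted p = 0.0248) and by 1.12 at 8 weeks (adjusted p = 0.000688), without overlap between ages. Fkbp14, a smaller isomerase of the same kind, fell from 9.88 ± 0.0153 to 6.78 ± 0.390 CPM (SD, n = 2 each) at 6 weeks (−0.54, adjusted p = 0.0262) and was at 5.87 ± 0.100 CPM (SD, n = 3) at 8 weeks (−0.75, adjusted p = 0.00139). The 6-week calls on Fkbp10 and Fkbp14 were lost without any 1 of the 4-week or 6-week libraries (adjusted p = 0.0842 to 0.200 and 0.0847 to 0.214), whereas Serpinh1 kept its calls at both ages under every alternative and the other chaperones theirs at 8 weeks.

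**Figure D2:**
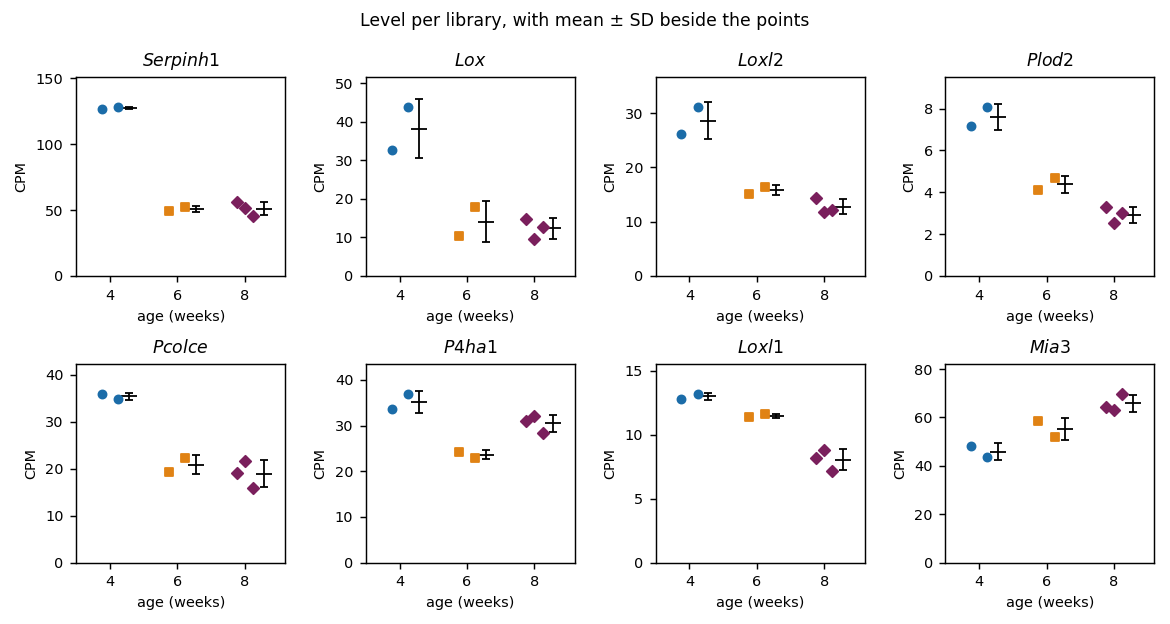
Level in CPM (vertical axis, from 0) of 8 genes against age in weeks, 1 point per library, with the mean ± SD of each age beside the points. Serpinh1, Lox, Loxl2 and Plod2 were lower in all 5 older libraries, P4ha1 was lowest at 6 weeks, Loxl1 lay at 11.4 and 11.6 CPM at 6 weeks and 7.16 to 8.81 at 8 weeks, and Mia3 was highest at 8 weeks.

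None of the 3 export genes, the transcription factor Creb3l1 included, was called lower at either age. Mia3 (TANGO1), a receptor at endoplasmic reticulum exit sites that loads bulky procollagen into COPII carriers, was at 48.2 and 43.5 CPM at 4 weeks, 58.3 and 52.1 CPM at 6 weeks and 64.5, 63.2 and 69.6 CPM at 8 weeks. The ages did not overlap. Its log2 fold change was 0.27 at 6 weeks (interval 0.02 to 0.51, adjusted p = 0.174) and 0.52 at 8 weeks (standard error 0.103, adjusted p = 0.00641). The rise at 8 weeks was lost without 4 weeks replicate 2 (adjusted p = 0.0965) and with library totals (0.33, adjusted p = 0.117), under which the median of all genes moved by −0.191. Sec23a, a subunit of the inner COPII coat, was at 76.9 to 89.95 CPM in all libraries and did not pass, with an interval of −0.06 to 0.36 at 8 against 4 weeks. Of 15 other genes of COPII export, none passed at 6 weeks. At 8 weeks Mia2, a partner of Mia3, was higher (0.36, adjusted p = 0.0279), and Sec24d, a cargo adaptor of the coat used for procollagen, was lower (−0.71, adjusted p = 0.00210). The median log2 fold change of these 15 genes was 0.05 at 6 weeks and 0.04 at 8 weeks. Creb3l1 is a transcription factor that activates collagen and secretory genes in bone-forming cells and fibroblasts. It was at 3.19 and 1.71 CPM at 4 weeks, 3.095 and 2.28 CPM at 6 weeks and 1.89, 1.57 and 1.19 CPM at 8 weeks. Its log2 fold change was −0.65 at 8 against 4 weeks and −0.78 at 8 against 6 weeks, where the libraries did not overlap. Creb3l1 did not pass in any comparison of ages.

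Fibrils form once the propeptides are cut off, and of the 7 genes of this step 1 was called at 6 weeks and 5 at 8 weeks, all lower. Pcolce, which enhances the C-proteinase, was at 35.9 and 34.9 CPM at 4 weeks, 19.4 and 22.3 CPM at 6 weeks and 19.2, 21.7 and 15.9 CPM at 8 weeks. It was the one called at 6 weeks (−0.77, standard error 0.142, adjusted p = 0.0136), and at 8 weeks its log2 fold change was −0.90 (adjusted p = 0.00108). Bmp1, the C-proteinase itself, was at 18.5 and 21.3 CPM at 4 weeks, 17.5 and 17.8 CPM at 6 weeks and 13.2, 14.8 and 11.4 CPM at 8 weeks. Adamts2, the main N-proteinase of type I collagen, was at 25.5 and 27.4 CPM, then 22.2 and 24.2 CPM, then 18.9, 20.3 and 15.5 CPM. In both genes the 6-week libraries lay just below those of 4 weeks (log2 fold changes of −0.18 and −0.19, adjusted p = 0.459 and 0.430), and the 8-week libraries were lowest. Bmp1 and Adamts2 fell at 8 against 4 weeks (−0.60, adjusted p = 0.00674 and −0.53, adjusted p = 0.0117), but a difference between their early and late change was not shown (adjusted p = 0.701 and 0.821). Tll1, a relative of Bmp1, and Adamts14, a relative of Adamts2, were low, at 1.02 to 2.43 CPM and 0.998 to 2.20 CPM, and passed only narrowly at 8 weeks (−0.77, adjusted p = 0.0439 and −0.70, adjusted p = 0.0371). Adamts3, which cuts type II collagen and a vascular growth factor, was at 2.87 and 2.61 CPM at 4 weeks, 1.79 and 1.72 CPM at 6 weeks and 2.40 to 2.65 CPM at 8 weeks, and did not pass (−0.64, adjusted p = 0.0662 at 6 weeks). Pcolce2, at 5.62 to 9.24 CPM, had an interval of −0.37 to 0.45 at 8 against 4 weeks. Pcolce lost its call at 6 weeks without 4 weeks replicates 1 and 2 and 6 weeks replicate 1 (adjusted p = 0.0687, 0.0995 and 0.153), and Bmp1 and Adamts2 theirs at 8 weeks without 4 weeks replicate 2 (0.0988 and 0.112). Tll1 was lost when any 1 library but 8 weeks replicate 1 was left out (adjusted p = 0.0558 to 0.256), and Adamts14 when any but 8 weeks replicate 2 was (0.0511 to 0.165). Both were also lost with the DESeq2 Wald test (0.101 and 0.134) and when only the ages compared were fitted (0.0605 and 0.0546).

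Lysyl oxidases convert lysine and hydroxylysine to the aldehydes from which cross-links form, and the 5 of them were called at different ages. Lox, the founding member, was at 32.8 and 43.7 CPM at 4 weeks, 10.3 and 17.8 CPM at 6 weeks and 14.8, 9.49 and 12.7 CPM at 8 weeks. It fell at both ages, with a log2 fold change of −1.44 at 6 weeks (standard error 0.248, adjusted p = 0.0105) and −1.63 at 8 weeks (standard error 0.221, adjusted p = 0.000897), which left 36.9% and 32.3% of the 4-week level. Loxl2, which also cross-links collagen IV, was at 26.2 and 31.1 CPM at 4 weeks, 15.1 and 16.4 CPM at 6 weeks and 14.3, 11.7 and 12.2 CPM at 8 weeks, and fell at both ages (−0.86, adjusted p = 0.00708 and −1.17, adjusted p = 0.000228). Loxl3 was lower without overlap at 6 weeks (−0.65, adjusted p = 0.0966) and passed at 8 weeks (−0.88, adjusted p = 0.0121). Loxl1, required for elastic fibers, showed little difference at 6 weeks, at 12.8 and 13.2 CPM and then 11.4 and 11.6 CPM (−0.18, interval −0.46 to 0.10), and fell at 8 weeks to 8.17, 8.81 and 7.16 CPM (−0.69, adjusted p = 0.00277). Loxl4 was lowest at 6 weeks, at 3.58 and 3.65 CPM, then 1.76 and 1.31 CPM, then 2.94, 2.19 and 1.86 CPM, and was called at 6 weeks only (−1.24, adjusted p = 0.0168, and −0.63, adjusted p = 0.0600 at 8 weeks). Whether the later change differed from the earlier one was not shown for Loxl1 or Loxl4 (adjusted p = 0.566 and 0.129). Per kb of exon the order of the family at 4 weeks was Lox (8.00 ± 1.62), Loxl2 (5.30 ± 0.632), Loxl1 (3.94 ± 0.0772), Loxl3 (1.25 ± 0.192) and Loxl4 (0.859 ± 0.0119 CPM per kb; SD, n = 2). At 8 weeks Lox (2.58 ± 0.558), Loxl1 (2.44 ± 0.253) and Loxl2 (2.36 ± 0.256 CPM per kb; SD, n = 3) no longer differed beyond their spread. Without 4 weeks replicate 2 or 6 weeks replicate 1 the 6-week calls were lost for Lox (adjusted p = 0.0984 and 0.104) and Loxl2 (0.0813 and 0.0936). For Loxl4 the call was lost without any 1 of the 4-week or 6-week libraries (0.0672 to 0.114). At 8 weeks Loxl3 was lost without 4 weeks replicate 2 (0.136), while Lox, Loxl1 and Loxl2 kept their calls without any 1 library.

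**Figure D3:**
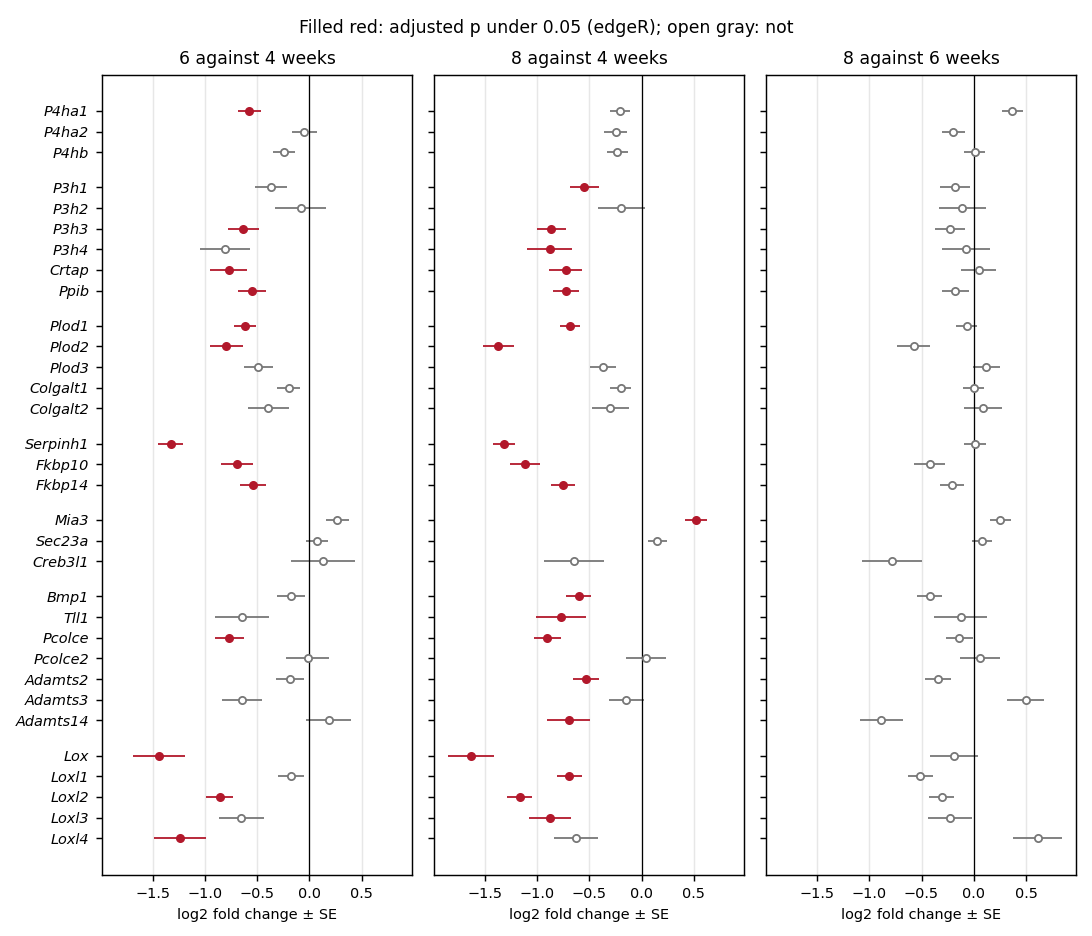
Log2 fold change (horizontal axis) with its standard error for the 32 tested genes in 3 comparisons of ages, with filled red points for an adjusted p under 0.05 by edgeR and open gray points for the rest. At 6 against 4 weeks 13 points are red and left of 0, at 8 against 4 weeks 19 are left and Mia3 alone is right, and at 8 against 6 weeks none is red.

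The steps of the pathway can be set side by side by their summed levels. The 3 chaperones went from 146 ± 0.636 (SD, n = 2) to 63.1 ± 3.37 (SD, n = 2) and 61.2 ± 5.81 CPM (SD, n = 3) at 4, 6 and 8 weeks, and the 5 lysyl oxidases from 89.3 ± 12.4 to 46.5 ± 6.55 and 38.6 ± 4.01 CPM. The prolyl 3-hydroxylase complex and its relatives went from 48.6 ± 3.40 to 33.4 ± 2.19 and 30.2 ± 3.37 CPM. Propeptide cleavage went from 96.4 ± 3.02 to 74.6 ± 4.06 and 63.3 ± 9.13 CPM, lysyl hydroxylation from 82.6 ± 5.71 to 60.3 ± 0.0141 and 58.8 ± 1.49 CPM, and prolyl 4-hydroxylase from 170 ± 8.84 to 139 ± 1.06 and 145 ± 9.39 CPM. Export was the step whose sum was larger in older muscle, at 125 ± 4.24, 139 ± 1.63 and 153 ± 3.005 CPM. A sum follows its most abundant gene, which is Serpinh1 for the chaperones and P4hb for the prolyl 4-hydroxylase.

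**Figure D4:**
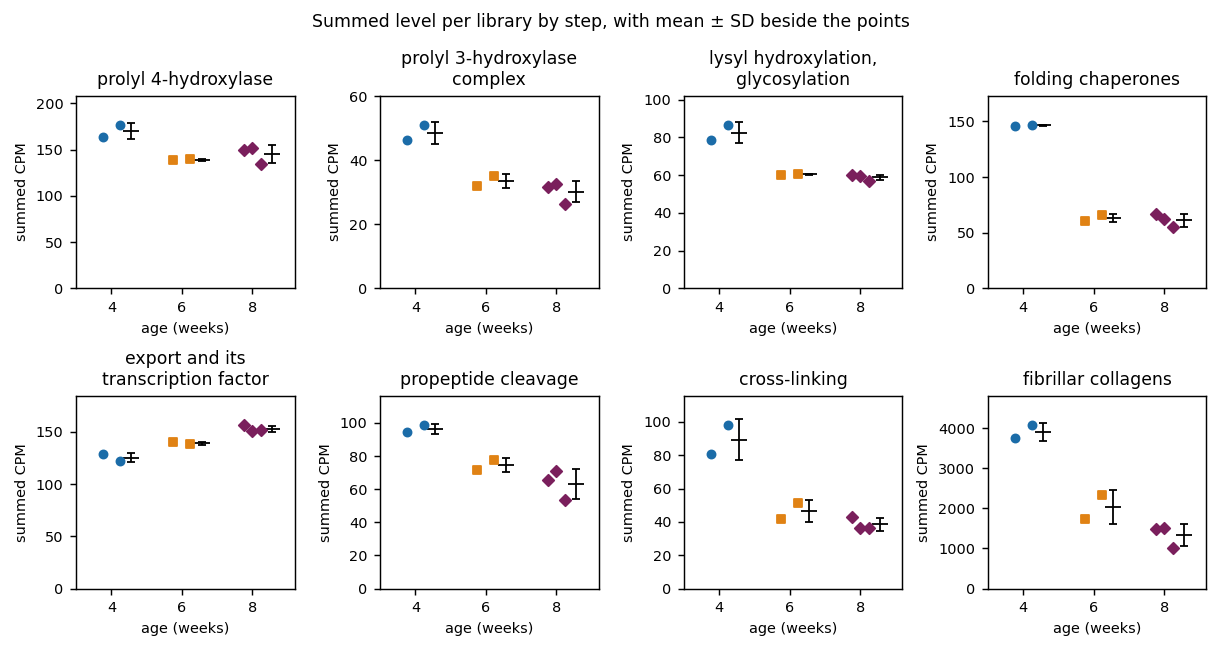
Summed CPM (vertical axis, from 0) of the genes of each step and of 11 fibrillar collagens against age in weeks, 1 point per library, with the mean ± SD beside the points. The chaperones lay at 146 and 147 CPM at 4 weeks and at 54.95 to 66.5 CPM later, while the export genes were highest at 8 weeks.

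The collagen mRNAs whose products these proteins act on had a lower median log2 fold change than the processing genes at both later ages. The 11 fibrillar collagen genes summed to 3746 and 4070 CPM at 4 weeks, 1725 and 2330 CPM at 6 weeks and 1477, 1504 and 1023 CPM at 8 weeks. Of the 11 genes, 7 were lower at 6 weeks and 9 at 8 weeks, with median log2 fold changes of −0.80 and −1.45, and Col1a1 was at −1.84 at 8 weeks (adjusted p = 0.000448). The 33 processing genes summed to 738 and 780 CPM at 4 weeks, 545 and 567 CPM at 6 weeks and 572, 564 and 514 CPM at 8 weeks. Per 1000 CPM of fibrillar collagen mRNA that was 197 and 192 CPM at 4 weeks, 316 and 244 CPM at 6 weeks and 388, 375 and 503 CPM at 8 weeks, higher in every older library than in both of 4 weeks. For P4hb the ratio went from 31.4 to 52.2 and 79.7 CPM per 1000 CPM of collagen (means at 4, 6 and 8 weeks), and for Mia3 from 11.8 to 28.1 and 51.3. Serpinh1, by contrast, had ratios of 33.9 and 31.4 at 4 weeks, 28.4 and 22.6 at 6 weeks and 37.8, 34.5 and 44.7 at 8 weeks, and Lox 8.74 and 10.7, 5.99 and 7.64, then 10.01, 6.31 and 12.4. Serpinh1 and Lox were thus lower relative to collagen at 6 weeks than at 4 weeks, and at 8 weeks Serpinh1 was above both while Lox spanned the 4-week values. The collagen sum, by which each ratio is divided, had means of 3908, 2028 and 1335 CPM at 4, 6 and 8 weeks. The ratio of a gene with an unchanged level would therefore rise as well. The level of P4hb itself had means of 123, 104 and 104 CPM, and that of Mia3 45.9, 55.2 and 65.8 CPM. These ratios are descriptions of single libraries and were not tested.

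**Figure D5:**
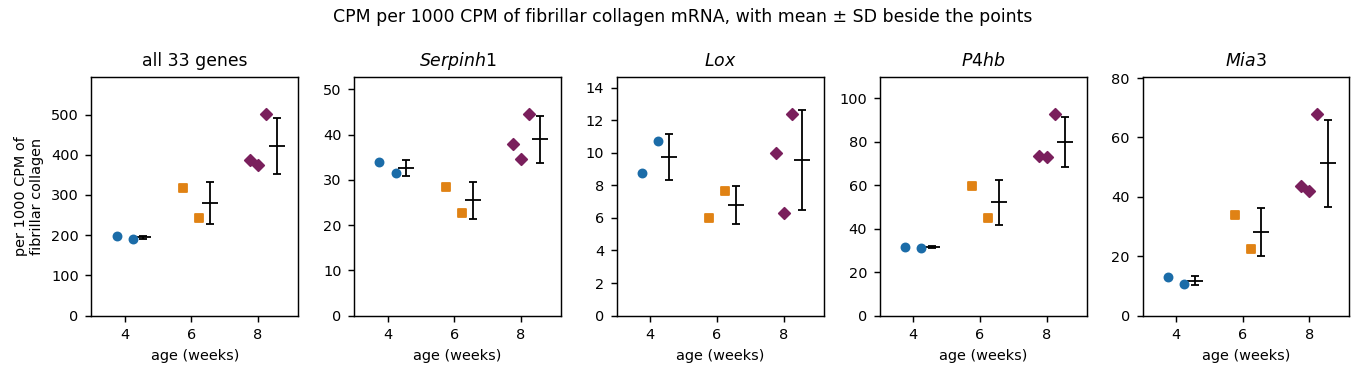
CPM per 1000 CPM of summed fibrillar collagen mRNA (vertical axes, from 0) against age in weeks for all 33 genes together and for Serpinh1, Lox, P4hb and Mia3, 1 point per library with the mean ± SD beside. The sum, P4hb and Mia3 were higher in each library of each later age, while Serpinh1 and Lox had their lowest means at 6 weeks (25.5 and 6.82). The collagen sum used as the denominator fell with age.

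A further list holds 20 genes that act beside the members, from general chaperones of the endoplasmic reticulum to proteins of the matrix. Of these, 19 were tested, 8 were lower and none higher at 6 weeks, and 10 were lower and 3 higher at 8 weeks, with medians of −0.41 and −0.57. The disulfide isomerases Pdia3, Pdia6 and Pdia4 and the chaperone Hspa5 were among those that fell at 6 weeks (−0.72, −0.74, −0.73 and −0.56, adjusted p = 0.0117, 0.0134, 0.0147 and 0.0173). The chaperone Calr was not called at 6 weeks (−0.41, adjusted p = 0.0617) or at 8 weeks (−0.13, adjusted p = 0.456). At 8 weeks Kdelr3, which returns escaped chaperones, fell by 1.395 on the log2 scale (adjusted p = 0.000721) and Sparc, a collagen-binding matricellular protein, by 1.135 (adjusted p = 0.00127). Furin, the protease that activates proforms such as that of Bmp1, rose at 8 weeks (0.68, adjusted p = 0.00882), as did Tmem38b (0.40, adjusted p = 0.0393), a cation channel of the endoplasmic reticulum, and P4htm (0.76, adjusted p = 0.0424), a membrane prolyl hydroxylase.

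Markers of fibroblasts, tendon cells and other cells of the muscle moved with these genes in part. Of 12 fibroblast and progenitor markers 3 were lower and 1 higher at 6 weeks, and 4 and 1 at 8 weeks (medians −0.23 and −0.32), with Mfap5 among the lower ones (−0.83, adjusted p = 0.00968 at 6 weeks). The defining marker Pdgfra was not called (−0.24, adjusted p = 0.247 at 6 weeks). Their summed level was 664 to 714 CPM at 4 weeks, 830 to 869 CPM at 6 weeks and 651 to 912 CPM at 8 weeks. Most of this sum is Gsn, which rose at 6 weeks (0.66, adjusted p = 0.0359) and is not confined to fibroblasts. Gsn was at 374.5 and 398 CPM at 4 weeks, 634.7 and 590 CPM at 6 weeks and 648.3, 668.4 and 454.9 CPM at 8 weeks. By the sign of the log2 fold change, 8 of the 12 markers were lower and 4 higher at each later age. Of 8 tenocyte markers 5 were lower at each later age (medians −0.63 and −0.90). Their sum was 216 to 241 CPM at 4 weeks, 142 to 160 CPM at 6 weeks and 135 to 179 CPM at 8 weeks. Among these markers Egr2 is also in the list of immediate early genes, with means of 1.09, 1.16 and 0.451 CPM at 4, 6 and 8 weeks. Tnmd, the defining marker of tendon cells, was at −1.39 at 6 weeks (adjusted p = 0.00965) and −1.63 at 8 weeks (adjusted p = 0.000718). Of 11 cartilage and bone markers only 6 had enough counts for a test, among them Col2a1, which is also in the list of fibrillar collagens. The bone markers Bglap and Sp7 had 0 to 3 counts a library and Matn1 of cartilage none. At 6 weeks 2 were lower, and at 8 weeks 3 were lower and 1, Col9a1, was higher (1.70, adjusted p = 0.00371). The list summed to 3.63 to 9.84 CPM, and the cartilage proteoglycan Acan was at 1.10 ± 0.738 CPM at 4 weeks (SD, n = 2) and 0.0509 ± 0.0208 CPM at 8 weeks (SD, n = 3). Of 8 endothelial markers 6 were lower at 6 weeks and 5 at 8 weeks, with sums of 235 to 261, 161 to 163 and 165 to 197 CPM. Of 8 macrophage markers 1 was lower at 6 weeks and 3 at 8 weeks, with means of the sum of 117, 86.7 and 78.8 CPM at 4, 6 and 8 weeks. Of 8 smooth muscle and pericyte markers 1 was lower at 6 weeks, and 2 were lower and 1 higher at 8 weeks, with means of 480, 383 and 355 CPM. Of 6 cell division genes tested, 5 were lower at 6 weeks and all 6 at 8 weeks. Of 7 skeletal muscle fiber markers none was called at 6 weeks, and 2 were higher and none lower at 8 weeks. The means of the fiber sum rose with age, at 63240, 69770 and 80120 CPM at 4, 6 and 8 weeks. The part of these cells in the decline of the processing genes was not tested. At 8 against 4 weeks 19 processing genes were lower and 1 higher without 8 weeks replicate 2, and 18 and 1 without replicate 1. Without 8 weeks replicate 3 the counts were 17 and 1. Replicates 1 and 3, with lower immediate early and slow fiber sums, were not left out together. The part of that difference was not tested.

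The count of 13 at 6 against 4 weeks rests on few libraries. Leaving out replicate 1 or 2 of 4 weeks gave 4 and 1, leaving out replicate 1 or 2 of 6 weeks gave 1 and 5, and scaling to library totals gave 7, in each case all lower. With library totals the 6-week calls on Crtap, Ppib, P3h3, Fkbp10 and Fkbp14 were lost as well (adjusted p = 0.0721 to 0.124), and with the DESeq2 Wald test those on P3h3 (0.0828) and Fkbp14 (0.0517). The count of 20 at 8 against 4 weeks was 11 without 4 weeks replicate 2, all lower, and 17 to 20 without any other library. Under all 13 alternatives Serpinh1 was called at 6 weeks, and Serpinh1, Lox, Loxl1, Loxl2, Plod1, Plod2, Pcolce, Ppib, P3h3, Fkbp10 and Fkbp14 were called lower at 8 weeks.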

How the data were processed

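RNA-seq counts of 7 gastrocnemius libraries were used. Per the study's methods, the authors filtered single-end reads with Trimmomatic, mapped them with STAR to GRCm38.p5 and obtained exon counts per gene name on the transcribed strand with featureCounts. The deposited counts are raw. The authors' tables of normalized counts, of their own comparisons (fold changes, p-values) and of enriched pathways were not used.

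The tests ran in edgeR 4.0.16 (R 4.3.3): filterByExpr with a minimum count of 10, TMM, and quasi-likelihood F tests on a design with 1 mean per age, which leaves 4 residual degrees of freedom. Adjustment was by Benjamini-Hochberg over the 14976 genes tested. A standard error is the size of the log2 fold change divided by the square root of F, and intervals are at 95%. Alternatives were DESeq2 size factors and its Wald test (DESeq2 1.42.0), library totals, no filter on low counts, only the ages compared, a replicate block, and each library left out. The members and other gene lists were chosen with earlier results of these data known. All 33 members are named, and from other lists up to 4 genes with the smallest p in each direction. Calr, Pdgfra, Bglap, Sp7, Matn1, Mmp8 and Mmp13 were named after their values were seen. So were Egr2 and Col2a1, because each is in more than 1 list. Exon lengths are those of GENCODE M21, which may not be the release used for counting. Drawing used matplotlib 3.10.9 under Python 3.11.15. The code was tested on simulated data. The labels give 1 library per mouse, and p-values measure the spread between these few mice.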

Additional observations from a re-analysis of the deposited data

Results flagged for a closer look

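Serpinh1, the collagen chaperone, stood out because its step from 4 to 6 weeks differed from its step from 6 to 8 weeks by a test of the difference itself. The log2 fold change was −1.33 in the first step and 0.01 in the second, and −1.34 for the first minus the second (edgeR adjusted p = 0.0385). The difference was not called when any 1 library of 4 or 6 weeks, or 8 weeks replicate 1, was left out (adjusted p = 0.083 to 0.356).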

How the results depend on the processing

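No direction changed among the 34 calls on single genes, and 84 of their 441 values under alternatives were no longer called. Of 94 differences that were not called, 22 had the opposite sign under at least 1 alternative, in 71 of 1191 values. The count of collagen processing genes at 6 against 4 weeks was 7 with library totals and 1 to 16 without single libraries, that at 8 against 4 weeks 11 to 20 without single libraries, and that at 8 against 6 weeks 2 with no filter on low counts (Loxl1 and Adamts14, both lower). For the change from 4 to 6 minus that from 6 to 8 weeks it was 0 with library totals, 3 with no filter, 2 with the DESeq2 Wald test and 0 to 3 without single libraries. Over all genes the count at 6 against 4 weeks, 1034, was 530 with library totals, 1826 with only the ages compared and 50 to 1584 without single libraries, and by DESeq2 623 were higher and 473 lower against 471 and 563. At 8 against 4 weeks 2768 became 786 to 2541 without single libraries. With library totals 438 were higher and 1942 lower, against 1427 and 1341. The median gene shifted by −0.191 under these totals (−0.183 at 8 against 6 weeks). At 8 against 6 weeks 28 became 93 with library totals, 232 with no filter, 170 with DESeq2 and 10 to 77 without single libraries, and for the difference of steps 14 became 39, 249, 146 and 4 to 137. The cause of these shifts in count was not tested.

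A block for the replicate number called 16, 17, 0 and 3 collagen processing genes and 1530, 2316, 107 and 185 of all genes in the 4 comparisons, in the order given. It ended the calls at 8 against 4 weeks on P3h1 (adjusted p = 0.0513), Tll1 (0.107) and Adamts14 (0.0799). For libraries with the same number, deviations from the mean of the age had correlations of −0.0927 to 0.0428. At 4 and 6 weeks, each with 2 libraries, these deviations mirror each other. Same-number and other-number correlations there thus had equal size and opposite sign (0.0428 and −0.0428). The check therefore cannot decide whether the numbers pair mice, and the main test did not pair them. With 4 residual degrees of freedom, smaller changes than those called could be missed.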

Other observations

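Genes that organize or break down collagen fibrils outside the cell also differed with age. Of 13 fibril assembly genes, 4 were lower and 1 higher at 6 against 4 weeks, and 6 were lower and 1 higher at 8 against 4 weeks by edgeR. Kera and Bgn, small proteoglycans that bind fibrils or growth factors, fell at 8 weeks (log2 fold changes of −1.36, adjusted p = 0.000302 and −1.07, adjusted p = 0.000372), while the proteoglycan Prelp rose (0.80, adjusted p = 0.00204). Of 12 collagen breakdown genes 10 were tested, of which 3 were lower at 6 weeks and 5 at 8 weeks. The summed level of the 12 genes had means of 277, 257 and 247 CPM at 4, 6 and 8 weeks. Timp1, an inhibitor of matrix metalloproteinases, fell by 1.91 on the log2 scale at 6 weeks (adjusted p = 0.0117) and by 2.03 at 8 weeks (adjusted p = 0.00143). Timp1 was low, with 53 and 61 counts at 4 weeks and 9 to 16 in the older libraries. The fibroblast protease Fap fell by 0.72 at 6 weeks (adjusted p = 0.0132) and by 0.70 at 8 weeks (adjusted p = 0.00284), and the membrane metalloproteinase Mmp16 by 1.44 and 1.64 (adjusted p = 0.0152 and 0.00162). Mmp16 was low as well, with 80 and 92 counts at 4 weeks and 20 to 38 in the older libraries. The collagenases Mmp8 and Mmp13 had 0 to 5 counts a library and were not tested.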
